A study of Mus musculus with 12 samples.

Results

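The cytosolic ribosomal protein genes of mouse liver were followed through chemically induced fibrosis and its treatment. Genes were chosen by name, as those called Rpl or Rps with a number, together with Rplp0, Rplp1, Rplp2 and Rpsa. Of 21936 genes in the deposited table, 83 carried such a name, and 79 of them had at least 10 reads in at least 3 libraries and were kept, 47 of the large and 32 of the small ribosomal subunit. No measured difference between groups was used in that choice. The remaining 4 were Rpl10l with no read in any library, Rpl39l with 0 to 3 reads, Rpl3l with 0 to 7 reads and Rpl24 with 0 to 7 reads.

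Male C57BL/6 mice, 6 weeks old on purchase, received carbon tetrachloride (CCl4), a hepatotoxin whose repeated injection scars the liver, at 1 mL/kg into the abdomen 2 times a week for 8 weeks. The LFG mice were killed at that point. The REG mice then received 200 μL of PBS by tail vein, and the hADMSCs-Exo mice the same volume carrying 250 μg of exosomes from human adipose-derived mesenchymal stem cells, both 2 times a week for 4 weeks. All 3 groups therefore carry the CCl4 injury, LFG differs from the others also by time after it, and livers never given CCl4 were not analysed here. Each group had 3 libraries, written below as LFG 1 to LFG 3 and so on, and 3 samples of mice given the stem cells themselves were not analysed here.

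Ribosomal proteins together with ribosomal RNA make up the ribosome, the particle that translates mRNA into protein, and hepatocytes hold many ribosomes because the liver makes most plasma proteins. Each protein is needed in nearly equal number, so these mRNAs are controlled together, at translation as well as at transcription. They belong to the terminal oligopyrimidine (TOP) mRNAs, which begin with a C followed by an unbroken run of C and T, and whose translation depends on mTOR complex 1 through the binding protein LARP1.

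That tract could be read directly in the reference sequence. RefSeq promoter entries of build GRCm38.p6, each covering 250 bases before and 50 after a gene's start, were present for 59 of the 79 genes. At the annotated start itself, 13 of these 59 genes (22.0%) had a C followed by at least 4 more C or T, against 3.01% of 27025 genes with an entry. A second short word, CCGGAAG, the core bound by ETS factors such as GABP, was found on either strand in 25 of the 59 (42.4%) and in 9.93% of all genes. Of its 31 occurrences, 22 lay no more than 100 bases before the start or in the 50 after it. The words AAGATGGC, the core of the YY1 motif, and TATAAA, the TATA box, were in 10.2% and 11.9% of the members' windows and in 3.19% and 15.7% of all genes' windows, searched on both strands. These are matches of letters in a fixed window, and an annotated start a few bases away from the true one would hide a tract.

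Windows of 30 bases, 10 before the annotated start and 20 from it, are shown for 6 genes, chosen to span high and low levels, with the pyrimidine tract in capitals. Rps6 lies on the minus strand at chr4:86857348-86857377, Rps18 on the minus strand at chr17:33955646-33955675, Rpl15 on the minus strand at chr14:18270967-18270996, Rplp2 on the plus strand at chr7:141447641-141447670, Rpl35 on the minus strand at chr2:39005112-39005141 and Rps10 on the minus strand at chr17:27635225-27635254.
Rps6: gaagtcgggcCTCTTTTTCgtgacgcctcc
Rps18: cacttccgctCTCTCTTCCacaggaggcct
Rpl15: agaaagccttCTTCCTTTCCTCTggcggca
Rplp2: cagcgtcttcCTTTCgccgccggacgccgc
Rpl35: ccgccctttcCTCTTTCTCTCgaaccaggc
Rps10: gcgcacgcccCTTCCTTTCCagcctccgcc
The longest tract among the 13 was the 13 letters of Rpl15 and the shortest the 5 letters of Rplp2 and Rps21. Rps6 and Rps18, whose mRNAs were abundant, and Rpl35 and Rps10, which were among the lowest, all began with one. The median level was 63.0 FPKM for the 13 genes with a tract and 97.7 FPKM for the 46 without.

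Library totals ran from 13837445 to 19840917 counts. The library LFG 3 had the fewest counts and the fewest detected genes (13924, against 14539 to 15248 in the other 8) and stood apart from LFG 1 and LFG 2. Summed over 10 markers of hepatic stellate cells and myofibroblasts, the cells that lay down scar collagen, it held 34.7 CPM (counts scaled to a common library total, here on totals scaled by TMM, a method that sets most genes' ratios near 1) against 1223 and 744 in LFG 1 and LFG 2, 131 to 227 in REG and 43.5 to 113 in hADMSCs-Exo. Its sum over 10 macrophage markers was 155 CPM against 496 to 1659 elsewhere. Only Tagln among the stellate markers was at 0, in 5 libraries, none of them LFG. All 10 hepatocyte markers were detected in every library, and their sum was 164422 CPM in LFG 3, within the 89717 to 184558 CPM of the others. The label of LFG 3 as fibrotic liver is therefore not borne out by its stellate markers, and the members' counts and medians against LFG are given with and without it. Less RNA per cell and fewer cells of a type cannot be told apart in these bulk samples.

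The levels came first. Levels are given as FPKM, reads scaled by the length of the gene and by the library total, which makes genes of different length comparable. Of the 79 mRNAs, 41 had a mean over 100 FPKM, 32 lay between 10 and 100 and 6 were lower. The 41 made up 9.11% of the 450 genes above that level. The median of the 79 was 102 FPKM, with 102 for the large and 105 for the small subunit. Between the highest and lowest mean lay a factor of 872. The plot of the ordered levels shows a broad shoulder from Rplp1 to Rpl7l1 and a drop for the last 6.

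**Figure D1:**
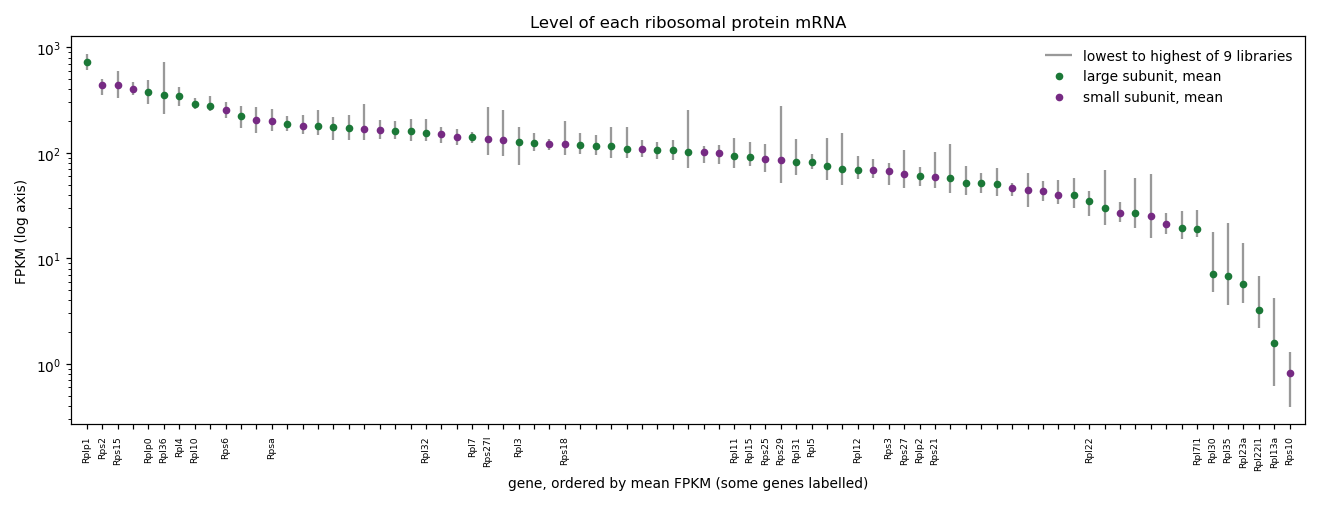
Mean level of each of the 79 ribosomal protein mRNAs in FPKM on a log axis, ordered from left to right, with green points for the large and purple points for the small subunit; grey bars span the lowest to the highest of the 9 libraries. Rplp1 stands highest at 720 FPKM, and 6 genes from Rpl30 to Rps10 fall under 10 FPKM.

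Rplp1 (ENSMUSG00000007892, GRCm38 chr9:61913284-61914542, minus strand), which with Rplp2 forms the flexible stalk that recruits translation factors, was the highest. Its 9 values were 797, 606 and 825 FPKM in LFG, 646, 867 and 714 in REG, and 666, 627 and 728 in hADMSCs-Exo. The groups overlapped completely, with means of 743 ± 119, 742 ± 113 and 674 ± 50.6 FPKM (SD, n = 3). Rps2, at the mRNA entry of the small subunit, measured 483, 353 and 421 FPKM in LFG, 450, 503 and 446 in REG, and 446, 385 and 439 in hADMSCs-Exo. Rps15, near the decoding site, followed with 417, 333 and 591 FPKM in LFG, 488, 469 and 394 in REG, and 449, 333 and 442 in hADMSCs-Exo. The means of Rps2 (436 FPKM) and Rps15 (435 FPKM) were closer than either gene's spread between libraries, so their order is not resolved, while Rplp1 was above both in all 9 libraries.

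Other stalk proteins were lower. Rplp0, the base on which Rplp1 and Rplp2 sit, measured 493, 376 and 289 FPKM in LFG, 398, 401 and 328 in REG, and 413, 339 and 374 in hADMSCs-Exo. Rplp2 measured 69.7, 57.5 and 60.5 FPKM in LFG, 55.3, 57.5 and 48.6 in REG, and 72.8, 60 and 65.5 in hADMSCs-Exo. Rpl12, which holds the stalk to the ribosome, ranged from 56.6 to 92.8 FPKM. Rplp1 and Rplp2, which enter the ribosome in equal number, thus differed widely in FPKM in every library. Rpsa, the small subunit protein also known as the laminin receptor, measured 262, 162 and 195 FPKM in LFG, 199, 197 and 179 in REG, and 228, 170 and 193 in hADMSCs-Exo, again without separation of the groups.

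The gene length behind FPKM affects this order. It is the summed length of all annotated exons of a gene, which exceeded 2 times the length of the chosen coding transcript for 42 of the 79 genes. Divided by the transcript length instead, the top 3 became Rps2 (730 CPM per kilobase), Rplp1 (720) and Rpl10 (701), the last of these a late-joining protein near the peptidyl transferase centre. The lowest 2, Rpl13a and Rps10, held their places. The Spearman correlation of both orders over the 79 genes was 0.89, both being built from the same counts.

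The lowest genes were Rps10 (ENSMUSG00000052146, chr17:27630418-27636669, minus strand) at a mean of 0.825 FPKM, with 18 to 43 reads a library, and Rpl13a (ENSMUSG00000074129, chr7:45125558-45128761, minus strand) at 1.57 FPKM, with 26 to 122 reads. Rps10 measured 0.902, 1.13 and 1.28 FPKM in LFG, 0.935, 0.461 and 0.393 in REG, and 0.999, 0.815 and 0.510 in hADMSCs-Exo. Then came Rpl22l1 (3.21), Rpl23a (5.73), Rpl35 (6.73) and Rpl30 (7.14 FPKM). Both Rps10 and Rpl13a encode core proteins of every ribosome. In the GENCODE annotation of GRCm38, a share of their exonic bases also belongs to another gene: 28.7% for Rps10, 35.4% for Rpl13a, 62.3% for Rpl23a, 66.2% for Rpl35, 24.8% for Rpl30, and 47.0% for Rpl24, which fell short of the read minimum. Of the 7 names with under 10 FPKM that include Rpl24, 6 had an overlap of at least 20%, against 5 of 73 at 10 FPKM or more, among them Rpl5, Rpl31, Rps25 and Rpl32. The exception was Rpl22l1 with 8.0%. Counting programs often set aside reads that fall on 2 genes, and the part of this in the low values was not tested, so the levels of these 6 genes and of Rpl24 are uncertain.

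Shared sequence is a second limit. Ribosomal protein genes have many processed pseudogenes, and at least 50% of the 50-base words of the transcript recurred in another annotated gene for 34 of the 79, with a median of 43.9%.

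The paralogs, copies that can take the place of the standard protein, were at very different levels. Rps27l, named as a target of p53, measured 138, 107 and 272 FPKM in LFG, 123, 127 and 110 in REG, and 137, 94.8 and 114 in hADMSCs-Exo. Its standard partner Rps27, a zinc-binding protein of the small subunit, measured 50.7, 46.2 and 107 FPKM in LFG, 63.2, 63.7 and 46.5 in REG, and 67.4, 58.6 and 63.2 in hADMSCs-Exo. Rps27l was above Rps27 in FPKM in each of the 9 libraries. Per kilobase of the chosen transcript the means kept this order at 222 and 190 CPM, but were closer than the libraries' spread. The size of the gap thus depends on the length used. The other pairs had the standard gene higher in FPKM: Rpl22 averaged 34.6 FPKM against 3.21 for Rpl22l1, and Rpl7 averaged 140 against 18.9 for Rpl7l1. Rpl10l, Rpl39l and Rpl3l, the copies known from testis and muscle, stayed under the read minimum.

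The share of all reads that fell on the 79 genes was small and similar in every group. It was 2.0, 1.48 and 2.02% in LFG 1 to LFG 3, 1.74, 1.79 and 1.56% in REG, and 1.82, 1.51 and 1.71% in hADMSCs-Exo. The group means were 1.83 ± 0.304, 1.70 ± 0.119 and 1.68 ± 0.157% (SD, n = 3), and the ranges overlapped. The mean share in hADMSCs-Exo was 0.991 times that in REG and 0.916 times that in LFG, and the mean share in REG was 0.924 times that in LFG. With 3 libraries a group, an exact permutation test cannot go below p = 0.1, and no test was run on these shares. The large subunit took 1.33 to 1.41 times the reads of the small subunit in all 9 libraries. On totals scaled by TMM, LFG split into 1.46, 1.36 and 2.5%, with REG at 1.64 to 1.94% and hADMSCs-Exo at 1.5 to 1.83% in between.

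**Figure D2:**
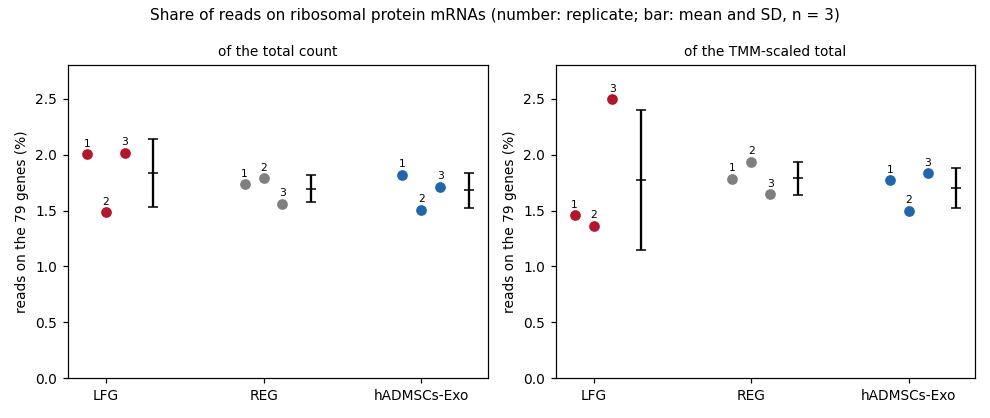
Percent of reads on the 79 ribosomal protein genes in each library, of the total count (left) and of the total scaled by TMM (right), with replicate numbers at the points and the mean and SD of each group (n = 3) as bars. After scaling, LFG 3 at 2.5% lies above all other libraries, while LFG 1 and LFG 2 lie below them.

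Over the 9 libraries the 79 mRNAs rose and fell largely together, and how closely other genes do so was not computed. The median Pearson correlation between 2 members' log2 CPM was 0.82 over the 9 libraries and 0.79 over the 8 without LFG 3. These points share their libraries and scaling, so the values are descriptions. The median member was 0.65 above its 9-library mean in LFG 3, and 0.30 and 0.35 below it in LFG 1 and LFG 2. In REG the medians were 0.02, 0.16 and -0.10, and in hADMSCs-Exo 0.03, -0.22 and 0.09. Other genes had a like profile: 253 with transcripts of 750 to 1000 bases had medians of -0.39, -0.40 and 0.59 in LFG. Theirs were 0.05, 0.22 and 0.03 in REG, and 0.03, -0.19 and 0.13 in hADMSCs-Exo. The median SD of log2 CPM within a group was 0.58 for members in LFG, 0.15 in REG and 0.17 in hADMSCs-Exo, against 0.36, 0.18 and 0.20 for all 8122 genes with a mean log2 CPM over 3, and 0.48, 0.17 and 0.19 for the 1198 genes at or above the members' lower quartile of level. LFG 3 held the highest value of 66 of the 79 genes, and LFG 2 the lowest of 39. The same counts over all genes were not made.

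**Figure D3:**
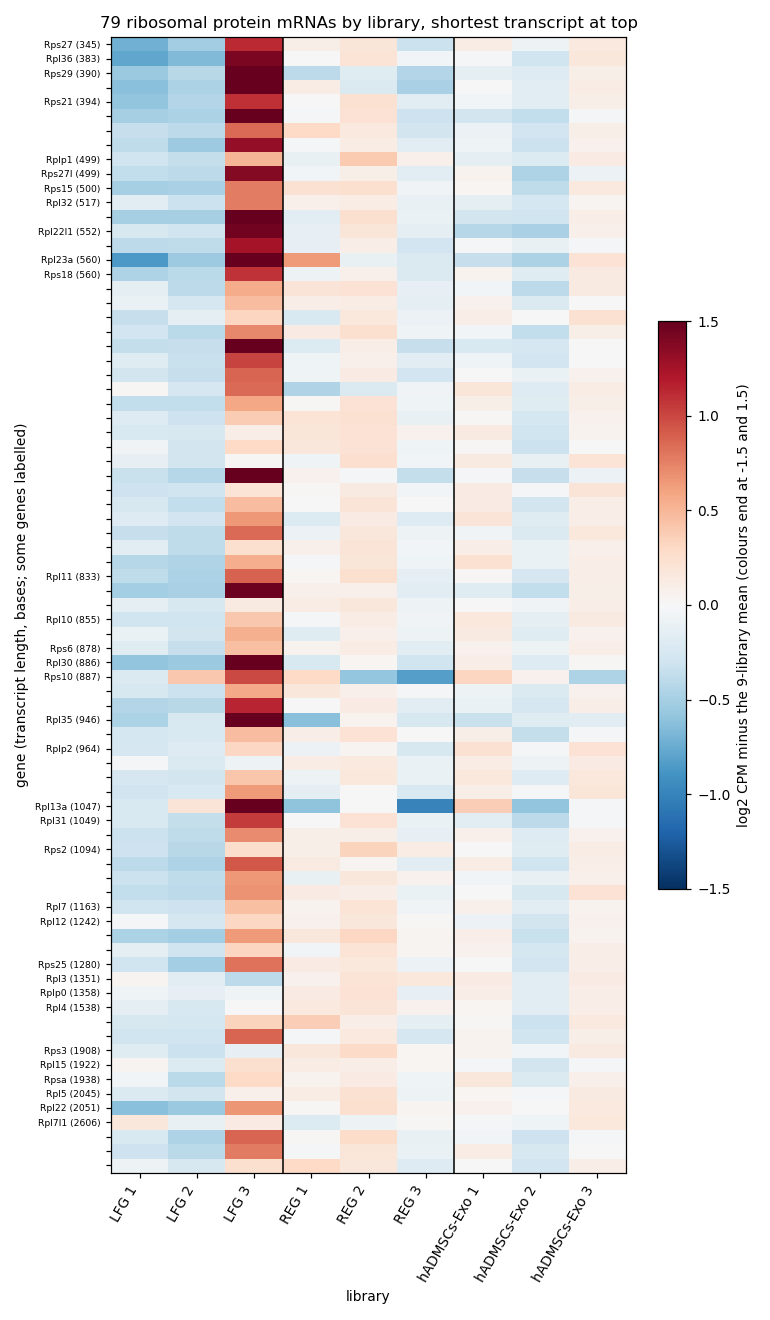
Log2 CPM of each of the 79 genes minus its mean over the 9 libraries, red above and blue below that mean, with libraries as columns and genes as rows ordered by transcript length (in bases, in brackets, for labelled genes). The LFG 3 column is red, most deeply at the top where transcripts are short, and 75 of 79 genes are above their mean there, against 4 in LFG 1 and 2 in LFG 2.

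Among the 79 genes, how far LFG 3 departed differed from gene to gene and went with transcript length. The level in LFG 3 exceeded the mean of LFG 1 and LFG 2 for 78 of 79 genes, by a median of 0.99 on the log2 scale, and by 1 or more for 39 genes (49.4%). Over 8044 other genes with a mean log2 CPM over 3, 59.3% were higher in LFG 3. Their median difference was 0.17 and 14.4% were higher by 1 or more. Rps29 (ENSMUSG00000034892, chr12:69157722-69159186, minus strand), a zinc-binding protein of the small subunit whose transcript has 390 bases, had log2 CPM of 5.12, 5.25 and 7.89 in LFG 1 to LFG 3 and 5.23 to 5.76 in the other libraries. This was the widest gap, 2.70. Rpl35, at the tunnel exit, had 2.38, 2.61 and 5.05 in LFG, a gap of 2.56. Rpl3, one of the longest proteins here with 403 residues and placed near the peptidyl transferase centre, had 8.66, 8.44 and 8.22 in LFG and was the 1 member lower in LFG 3, by 0.33.

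By length, the median gap was 1.76 for the 11 members of up to 500 bases, 1.02 for the 19 between 500 and 750, 0.80 for the 22 between 750 and 1000, 1.01 for the 15 between 1000 and 1500 and 0.42 for the 6 between 1500 and 2000. Other genes in the same length classes had medians of 1.88, 1.24, 1.04, 0.75 and 0.42. The members' gap was thus close to that of other mRNAs of equal length up to 2000 bases. The 6 members that are longer had medians of 0.77 (4 genes) and 0.76 (2 genes), against 0.24 and -0.05 for other genes. The median transcript was 851 bases for the members and 3000 for the others. The Spearman correlation of the gap with length was -0.50 over the members and -0.39 over the others, across genes that share the same 3 libraries.

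**Figure D4:**
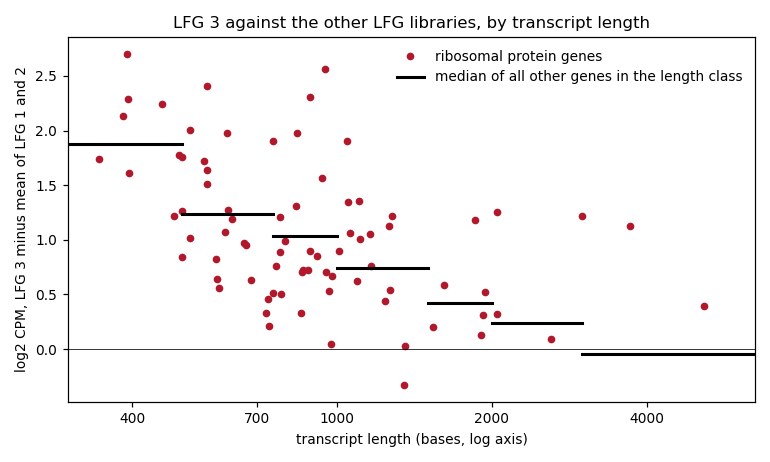
Log2 CPM in LFG 3 minus the mean of LFG 1 and LFG 2 against transcript length in bases on a log axis, each red point a ribosomal protein gene and each black line the median of all other genes in a length class. The points fall from 2.70 for Rps29 to around 0.42 between 1500 and 2000 bases, near the black lines over most of the range.

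The question closest to the treatment was whether exosomes changed these mRNAs relative to PBS. They were not detectably different between hADMSCs-Exo and REG. None of the 79 genes passed edgeR's quasi-likelihood test at an adjusted p under 0.05, a level that 0.00811% of 12337 genes reached. None reached an unadjusted p under 0.05 either, where 10.0% of all genes did. On the log2 scale 55 of 79 fold changes were below 0, while 51.1% of all genes were above 0. The members ran from -0.34 (Rpl23a) to 0.47 (Rpl13a), with a median of -0.07 against 0.01 for all genes tested. Leaving out hADMSCs-Exo 2 turned this median to 0.01, and leaving out hADMSCs-Exo 3 took it to -0.12. The 95% confidence interval lay inside 1 log2 unit on both sides for 76 of 79 genes, so for these a doubling or halving is outside the interval. The median standard error was 0.15 for members and 0.21 for all genes.

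Rps29 had the smallest p of the 79. Its values were 54.6, 59.9 and 51.3 FPKM in REG and 68.7, 64.7 and 72.7 FPKM in hADMSCs-Exo, a log2 fold change of 0.25 ± 0.14 (SE) with an adjusted p of 0.563 by edgeR. The groups do not overlap in FPKM, but on log2 CPM scaled by TMM hADMSCs-Exo 2 (5.48) fell below REG 2 (5.5). Rplp2 had a log2 fold change of 0.24 ± 0.13 (adjusted p = 0.586). Rpl31, at the rim of the exit tunnel, had -0.23 ± 0.15 (adjusted p = 0.612). On log2 CPM only Rpl15, a large subunit protein, had groups that do not overlap, with 7.91, 7.90 and 7.83 in REG and 7.77, 7.52 and 7.78 in hADMSCs-Exo. That is 1 of 79 genes lower and 0 higher, against 7.47% lower and 8.07% higher over all genes.

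By role the picture was even. In the 5S particle, Rpl5 and Rpl11, which also bind Mdm2 when ribosome assembly fails, had a median log2 fold change of -0.07. The 9 proteins of the exit tunnel and its rim had -0.05, the 2 near the peptidyl transferase centre -0.03, the 5 at the mRNA entry and exit -0.12 and the 4 of the stalk and its base -0.12. The large subunit's median was -0.08 and the small subunit's -0.06. Genes with a pyrimidine tract at the annotated start had a median of 0.02 (13 genes) and those without one -0.07 (46 genes), and with CCGGAAG the medians were -0.09 (25 genes) and without it -0.06 (34 genes).

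Other genes of the pathway gave the following. Of 49 ribosome biogenesis factors, which make and assemble the subunits in the nucleolus, 11 had an unadjusted p under 0.05 and were higher in hADMSCs-Exo and 0 were lower, and 0 had an adjusted p under 0.05. Over all genes 5.34% were higher and 4.69% lower at that level. Ddx21, a nucleolar helicase, led with 0.52 ± 0.13 (adjusted p = 0.380). Their summed level was 1463, 1415 and 1455 CPM in REG and 1690, 1404 and 1726 CPM in hADMSCs-Exo, so hADMSCs-Exo 2 was below all REG libraries. Of 10 mTOR and TOP regulators 3 were higher at an unadjusted p under 0.05, led by Larp1, the TOP mRNA binding protein, with 0.36 ± 0.12 (adjusted p = 0.409), and 0 passed adjustment. Of 15 other TOP mRNAs, such as those of elongation factors, 0 were called and the smallest p was that of Eif3f with 0.11 ± 0.11 (adjusted p = 0.755). Of 27 translation initiation and termination factors 0 were called, with Eif3a leading at 0.21 ± 0.12 (adjusted p = 0.595). Of 77 tested mitochondrial ribosomal protein genes 1 was higher and 4 were lower at an unadjusted p under 0.05, and Mrpl18 led with 0.53 ± 0.14 (adjusted p = 0.394).

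Markers of other cells were counted in the same comparison, and no list had a gene past adjustment. At an unadjusted p under 0.05, 5.34% of all genes were higher and 4.69% lower. Of 9 tested stellate and myofibroblast markers 6 were lower in hADMSCs-Exo at an unadjusted p under 0.05, led by Col3a1 with -1.73 ± 0.36 (adjusted p = 0.358), and 0 passed adjustment. Of 10 hepatocyte markers 2 were higher, led by Cyp2e1 with 0.67 ± 0.19 (adjusted p = 0.407), while the list's median was 0.00 and its lowest value -0.44. The summed level of these 10 genes was lower in hADMSCs-Exo, at 149025, 150018 and 136072 CPM, than in REG, at 184558, 178304 and 176534 CPM, without overlap. Of 10 lymphocyte markers 1 was higher, of 5 cholangiocyte markers 1 was lower, and 0 macrophage, neutrophil, sinusoidal endothelial or red blood cell markers were called. Their part in the values of the ribosomal protein genes was not tested.

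**Figure D5:**
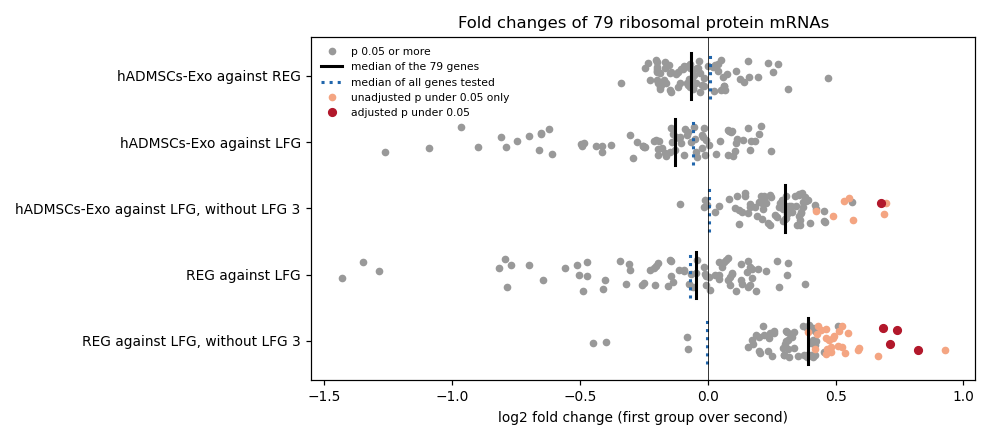
Log2 fold change of each of the 79 genes (points, spread vertically at random) in the 3 comparisons, with LFG contrasts drawn also without LFG 3, with black lines at the median of the 79 and blue dotted lines at the median of all genes tested; colours give the edgeR p class. With LFG 3 the points trail to -1.43, and without it the median shifts from -0.05 to 0.39 in REG and from -0.13 to 0.30 in hADMSCs-Exo, both relative to LFG.

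REG against LFG asks what 4 weeks without CCl4 did. With all 6 libraries 0 of 79 genes had an adjusted p under 0.05, as did 0.00% of 12517 genes, and 0 had an unadjusted p under 0.05, against 11.3% of all genes (4.62% higher and 6.70% lower). DESeq2 called 1 higher and 1 lower at an unadjusted p under 0.05, and 14.1% of all genes. Limma voom with quality weights, which lets libraries count unequally, called 26 members higher and 42.0% of all genes on the same libraries, with 4 members and 22.8% of genes past adjustment, and put the members' median at 0.36. The median log2 fold change was -0.05 against -0.07 for all genes. The range was wide, from -1.43 ± 0.65 for Rpl13a, which besides its ribosomal role silences inflammatory mRNAs (adjusted p = 0.464), to 0.38 ± 0.20 for Rps3, at the mRNA entry (adjusted p = 0.507). The median standard error was 0.33, over 2 times that of hADMSCs-Exo against REG, and the 95% interval lay inside 1 log2 unit for 46 of 79 genes.

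Groups did not overlap for 3 of the 79, all higher in REG (3.8%, against 8.91% of all genes), and for 0 lower, against 10.0%. Rps3 had log2 CPM of 8.04, 7.91 and 8.11 in LFG and 8.40, 8.51 and 8.25 in REG. Rpl3 had 8.66, 8.44 and 8.22 in LFG and 8.68, 8.82 and 8.77 in REG. Rpl4, which lines the exit tunnel, had 9.27, 9.17 and 9.42 in LFG and 9.55, 9.61 and 9.48 in REG. These are long for ribosomal protein mRNAs, with transcripts of 1908, 1351 and 1538 bases. None passed the test, with log2 fold changes of 0.38 ± 0.20, 0.32 ± 0.21 and 0.27 ± 0.22 and adjusted p of 0.507, 0.601 and 0.649 by edgeR.

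Without LFG 3, whose stellate markers depart from its label, the comparison turned. The median of the 79 became 0.39, and 75 of them were above 0, against 49.8% of all genes. The members ranged from -0.45 ± 0.42 for Rpl13a to 0.93 for Rpl23a. Rps3, Rpl3 and Rpl4 had 0.46 ± 0.19, 0.24 ± 0.20 and 0.37 ± 0.20. Then 28 genes were higher and 0 lower at an unadjusted p under 0.05, where 37.3% of all genes were called, 18.2% higher and 19.1% lower. The members' share that was higher was 35.4%. At an adjusted p under 0.05, 4 members were called, as were 16.8% of 12948 genes, so the members' share at that level (4 of 79) was below the background. Only 2 libraries stand for LFG here.

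Among these were Rpl36, Rpl22 and Rps15, chosen for naming after their values were seen. Rpl36 (ENSMUSG00000057863, chr17:56613416-56614243, plus strand), a protein of the large subunit, had log2 CPM of 6.23 and 6.35 in LFG 1 and LFG 2 and 7.01, 7.21 and 6.96 in REG, while LFG 3 had 8.42. Its log2 fold change without LFG 3 was 0.82 ± 0.17 (adjusted p = 0.025), and with it -0.31 ± 0.60 (adjusted p = 0.865). Rpl22 (ENSMUSG00000028936, chr4:152325742-152334071, plus strand), an RNA-binding protein of the large subunit, had 6.02 and 6.09 in LFG 1 and LFG 2, 7.30 in LFG 3, and 6.67, 6.88 and 6.68 in REG. Its fold change was 0.74 ± 0.16 (adjusted p = 0.0284) without LFG 3 and 0.15 ± 0.37 with it. Rps15 had log2 CPM of 7.58 and 7.59 in LFG 1 and LFG 2, 8.85 in LFG 3, and 8.30, 8.32 and 8.03 in REG, with a fold change of 0.69 ± 0.19 (adjusted p = 0.05, just under the threshold before rounding) without LFG 3 and 0.09 ± 0.39 (adjusted p = 0.946) with it. For each of the 3, REG lay on this scale between LFG 1 and LFG 2 below and LFG 3 above. In FPKM, which is not scaled by TMM, REG 3 was below LFG 1 for Rps15.

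The direction of this result rests on the scaling. TMM factors over the 9 libraries were 1.38 and 1.09 for LFG 1 and LFG 2 and 0.808 for LFG 3. With library totals alone and without LFG 3, an alternative chosen after the data were seen, the members' median was -0.03, 1 gene was lower (Rpl7l1, a factor of ribosome assembly) and 0 were higher at an unadjusted p under 0.05, and 0 passed adjustment. Over all genes 42.0% were called at the unadjusted level in either direction, and 27.7% passed adjustment. In that scaling the median of all genes was -0.43. Relative to the median gene the members stood 0.40 higher under TMM and 0.39 higher under library totals. A change of scaling moves every gene by nearly the same amount, so that agreement was bound to appear. Without LFG 3 these mRNAs lay above the median gene, and as a share of all reads they were not higher in REG. On TMM-scaled log2 CPM, 58 of the 79 were without overlap and higher in REG (73.4%, against 25.8% of all genes), and 0 lower, against 29.8%, where 55.6% of all genes had no overlap.

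hADMSCs-Exo against LFG gave a like pattern, and it shares its LFG libraries with REG against LFG. With all 6 libraries, 0 of 79 genes had an adjusted p under 0.05, as did 0.00% of 12489 genes, and 0 had an unadjusted p under 0.05, against 5.98% of all genes (2.30% higher and 3.68% lower). DESeq2 also called 0 at both levels, against 8.48% of all genes unadjusted and 0.742% adjusted. Voom with quality weights called 4 members higher at an unadjusted p under 0.05, against 28.1% of all genes, and put the median at 0.26. The median was -0.13 against -0.06 for all genes, and the range ran from -1.27 ± 0.72 for Rpl35 (adjusted p = 0.825) to 0.25 ± 0.20 for Rps3 (adjusted p = 0.874). Rps29 had -1.09 ± 0.73 (adjusted p = 0.858). Only Rps3 had groups without overlap, 8.27, 8.18 and 8.37 in hADMSCs-Exo against at most 8.11 in LFG, which is 1.27% of the members against 6.35% of all genes. No member was lower without overlap, as 5.93% of all genes were, 12.3% in both directions together.

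Without LFG 3 the median was 0.30, and 8 genes were higher and 0 lower at an unadjusted p under 0.05, against 12.8% and 15.7% of all genes. The share of members that were higher was 10.1%, near that background, and 28.5% of all genes were called in either direction. Rpl22 alone passed adjustment, with 0.68 ± 0.16 (adjusted p = 0.0489), where 7.09% of 12955 genes did. With LFG 3 its fold change was 0.11 ± 0.36. Its log2 CPM in hADMSCs-Exo was 6.70, 6.65 and 6.79. Rpl35 had 0.14 ± 0.24, Rps3 0.31 ± 0.20 and Rps29 0.42 ± 0.17 without LFG 3. Without overlap and higher were 48 members (60.8%, against 23.2% of all genes), and 0 were lower (25.6% of all genes). Rpl36 had 0.69 ± 0.20 (adjusted p = 0.0786), and -0.41 ± 0.59 with LFG 3, and DESeq2 without LFG 3 called 5 members in place of 1, and 16.0% of all genes. With library totals the median was -0.04 beside -0.32 for all genes, and no member had an unadjusted p under 0.05. Over all genes 30.8% did, and 12.3% passed adjustment. Relative to the median gene the members stood 0.30 higher under TMM and 0.28 higher under library totals, a difference that the choice of scaling hardly moves.

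By role, the medians without LFG 3 were 0.24 for the stalk and its base, 0.45 for the 5S particle, 0.39 for the exit tunnel and its rim, 0.30 near the peptidyl transferase centre and 0.42 at the mRNA entry and exit in REG, and 0.20, 0.35, 0.25, 0.24 and 0.31 in hADMSCs-Exo. With LFG 3 they were 0.10, 0.07, -0.25, 0.18 and 0.13 in REG, and 0.01, -0.01, -0.49, 0.13 and 0.03 in hADMSCs-Exo, so the exit tunnel proteins, among them Rpl35, moved most with that library of these 5 roles. Without LFG 3, Rplp0 had 0.22 ± 0.21 for REG and 0.12 ± 0.23 for hADMSCs-Exo, Rplp1 0.51 ± 0.22 and 0.28 ± 0.21, Rplp2 0.18 ± 0.17 and 0.38 ± 0.18, and Rpl12 0.26 ± 0.19 and 0.04 ± 0.21. None of these 4 had an unadjusted p under 0.05. With LFG 3 they were 0.17 ± 0.22 and 0.09 ± 0.22 for Rplp0, 0.13 ± 0.31 and -0.08 ± 0.30 for Rplp1, -0.06 ± 0.23 and 0.16 ± 0.22 for Rplp2, and 0.06 ± 0.22 and -0.14 ± 0.23 for Rpl12. Rpsa had 0.30 ± 0.22 and 0.24 ± 0.25 without LFG 3, and 0.07 ± 0.26 and 0.03 ± 0.27 with it. Of the paralogs without LFG 3, Rps27l had 0.39 ± 0.16 and 0.24 ± 0.20, Rpl22l1 0.30 ± 0.26 and 0.03 ± 0.30, and Rpl7l1 -0.08 ± 0.16 and -0.00 ± 0.17. Only Rps27l in REG reached an unadjusted p under 0.05 and its adjusted p was 0.123. With LFG 3 the paralogs turned or stayed below 0: Rps27l had -0.49 ± 0.50 and -0.61 ± 0.50, Rpl22l1 -0.56 ± 0.52 and -0.81 ± 0.53, and Rpl7l1 -0.15 ± 0.17 and -0.05 ± 0.17, none past an unadjusted p under 0.05.

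Other lists were counted in the same way without LFG 3, where at an unadjusted p under 0.05 18.2% of all genes were higher and 19.1% lower in REG, and 12.8% and 15.7% in hADMSCs-Exo. Past adjustment were 16.8% of all genes in REG and 7.09% in hADMSCs-Exo. Of 77 mitochondrial ribosomal protein genes 46 were higher and 0 lower in REG at an unadjusted p under 0.05, and 23 passed adjustment, with a median of 0.53 and Mrps26 leading (0.96 ± 0.18, adjusted p = 0.0191). In hADMSCs-Exo 26 were higher and 1 passed, with a median of 0.35 and Mrps9 leading (0.79 ± 0.19, adjusted p = 0.0496). Of 15 other TOP mRNAs 5 were higher in REG, led by Naca (0.63 ± 0.17, adjusted p = 0.0471), and 4 in hADMSCs-Exo, led by Eif4b (0.69 ± 0.20, adjusted p = 0.0801), with 0 lower in either. Of 10 mTOR and TOP regulators 3 were higher and 1 lower in REG, led by Eif4ebp1, the translation repressor that mTOR phosphorylates, with 1.14 ± 0.19 (adjusted p = 0.0159). In hADMSCs-Exo 3 were higher and 0 lower, with Eif4ebp1 at 1.07 ± 0.24 (adjusted p = 0.0419). The biogenesis factors had 6 higher and 4 lower in REG and 6 higher and 0 lower in hADMSCs-Exo, with Imp3, of the small subunit processome, at 0.82 ± 0.17 (adjusted p = 0.0252) and 0.65 ± 0.18 (adjusted p = 0.0768). Translation factors had 3 in each direction in REG, led by Eif3g (0.57 ± 0.16, adjusted p = 0.0467), and 2 higher and 3 lower in hADMSCs-Exo, led by Eif4e (-0.46 ± 0.17, adjusted p = 0.133). Fau, which is cleaved to the small subunit protein eS30, had 0.71 ± 0.20 in REG (adjusted p = 0.0496) and 0.65 ± 0.20 in hADMSCs-Exo (adjusted p = 0.0882).

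With all LFG libraries none of these lists held a gene with an adjusted p under 0.05 in either comparison, and the mitochondrial ribosomal proteins had a median of 0.10 in REG and -0.12 in hADMSCs-Exo. In REG 4 of 49 biogenesis factors were lower and 0 higher at an unadjusted p under 0.05, where 6.70% of all genes were lower and 4.62% higher, led by Bysl (-0.82 ± 0.22, adjusted p = 0.318), and 1 mitochondrial ribosomal protein gene, Mrpl3, was higher (0.58 ± 0.21, adjusted p = 0.404). Among the translation factors Eif3i was the most significant in REG (0.42 ± 0.17, adjusted p = 0.425), and Abce1, which splits the ribosome after termination, in hADMSCs-Exo (-0.42 ± 0.17, adjusted p = 0.805).

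Cell type markers differed along with these results. Over all genes without LFG 3, 18.2% were higher and 19.1% lower in REG at an unadjusted p under 0.05, and 12.8% and 15.7% in hADMSCs-Exo. Past adjustment were 16.8% in REG and 7.09% in hADMSCs-Exo. Without LFG 3, all 9 tested stellate and myofibroblast markers were lower in REG at an unadjusted p under 0.05, with 6 past adjustment and Col1a1 leading (-3.15 ± 0.35, adjusted p = 0.0109), and 8 were lower in hADMSCs-Exo with 6 past adjustment. Of 10 macrophage markers 4 were lower in REG, led by Cx3cr1 (-1.53 ± 0.31, adjusted p = 0.0232), and 6 lower and 1 higher in hADMSCs-Exo. Of 10 hepatocyte markers 3 were higher and 1 lower in REG, led by Fgb, a fibrinogen chain (1.40 ± 0.32, adjusted p = 0.0297). Of 5 tested cholangiocyte markers 3 were lower in REG and 4 in hADMSCs-Exo, and all 7 tested neutrophil markers were higher in hADMSCs-Exo, as they also were with LFG 3 included. With LFG 3, 0 of 9 stellate markers were lower in REG and 5 in hADMSCs-Exo at an unadjusted p under 0.05, 0 macrophage and 0 cholangiocyte markers were lower in either, 1 hepatocyte marker was higher and 1 lower in REG, and none of these lists had a gene past adjustment. Over all genes with LFG 3, 4.62% were higher and 6.70% lower in REG at that unadjusted level, and 2.30% and 3.68% in hADMSCs-Exo. Mitochondrially encoded RNA took 6.24% of reads in LFG 3 and 3.68 to 4.34% in the others. The part of cell composition and of RNA length in the differences of the ribosomal protein genes was not tested.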

How the data were processed

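Liver RNA (3 μg per library) was prepared with an NEBNext Ultra kit. The submitters' processing notes name cutadapt 1.15, HISAT2 2.0.5, HTSeq 0.9.1, DESeq 1.30.0 and build GRCm38; use of strand and annotation release are not given in the sources used here. The authors deposited raw counts per gene and FPKM, which equals counts divided by exonic length and library total (largest relative difference 9.19e-07). The hADMSCs-Exo values come from columns headed MSC_E, matched by inference from that E and the replicate number to samples titled as Exo, since samples titled MSC received the stem cells.

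Counts were tested with edgeR 4.0.16 (quasi-likelihood, two-sided, TMM, filterByExpr, R 4.3.3) on the 6 libraries of each pair of groups, with Benjamini-Hochberg adjustment over all genes tested. Log2 CPM used a prior count of 2. DESeq2 1.42.0 and limma 3.58.1 with voom were alternatives, with RLE factors, library totals, TMM without the members, other filters, 1 fit of all libraries, a replicate block, changed membership and each library left out. The tools were checked on simulated counts. Transcripts, overlaps and shared words came from GENCODE M21, where 21817 of 21936 genes matched, and promoters from RefSeq. The length of a gene's transcript is that of its best-tagged, then longest, coding transcript.

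The members and lists were chosen with earlier results of these data known. Named members are the paralogs, stalk proteins, Rpsa, and the 3 highest and 3 lowest by FPKM; a rule for up to 5 members a direction at an unadjusted p under 0.05 named none, so other members were named after their values were seen, and each list is represented by its gene of smallest p. A few genes are not reported here by name. Nothing in the sources used here ties libraries to separate animals beyond their labels, so p-values measure the spread between these libraries. The groups share replicate numbers, and deviations from group means correlated by 0.107, 0.313 and 0.191 for hADMSCs-Exo with LFG, but not in every pair for hADMSCs-Exo with REG (0.143, -0.00731 and 0.0273) or REG with LFG (0.423, -0.207 and 0.315). Replicate libraries differed beyond counting error, with a chi-square of at least 27.0 per gene over all genes in each pair.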

Additional observations from a re-analysis of the deposited data

How the results depend on the processing

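For hADMSCs-Exo against REG no setting turned Rps29, Rplp2, Rpl31 or Rpl15, the members recomputed one by one, and the 0 calls became 1 (unadjusted p under 0.05) with library totals only (Rps29, 0.314; 10.2% of all genes). Leaving out 1 library moved the median from -0.122 (without hADMSCs-Exo 3) to 0.00968 (without hADMSCs-Exo 2). In REG against LFG the unadjusted count was 2 with library totals only (11.4% of all genes), 2 with DESeq2 (14.1%), 26 with voom and quality weights (42.0%, and 4 adjusted against 22.8%), and 1 with all 9 libraries in one fit (15.7%). In hADMSCs-Exo against LFG voom gave 4 (28.1%). With voom and LFG 3 kept, the members' medians turned to 0.361 for REG and 0.260 for hADMSCs-Exo against LFG. Leaving out 1 library gave 0 to 28 unadjusted and 0 to 4 adjusted calls with a median of -0.198 to 0.393 for REG against LFG, and 0 to 8, 0 to 1 and -0.271 to 0.301 for hADMSCs-Exo against LFG. The highest values came without LFG 3, and without LFG 1 they were 3 (Rps29, Rpl35 and Rpl13a; 8.96% of all genes) and 1 (Rpl35; 4.14%), all lower.

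Settings without LFG 3 beyond TMM were chosen after seeing the data. DESeq2 then gave 43 unadjusted calls (37.9% of all genes), 22 adjusted (26.4%) and a median of 0.393 for REG, and 19 (29.2%), 5 (16.0%) and 0.308 for hADMSCs-Exo. Library totals gave 1 unadjusted call for REG (42.0%).

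Signs of single genes turned as follows. In REG against LFG with voom, Rps29 had 0.0648 and Rpl36 0.70, and without LFG 3 DESeq2 gave 0.199 and 0.823, and library totals, which set the median of all genes at -0.425, gave 0.406 for Rpl36, -0.190 for Rpl3 and -0.0534 for Rpl4. For hADMSCs-Exo voom gave 0.270 for Rps29, 0.00527 for Rpl35 and 0.545 for Rpl36, DESeq2 without LFG 3 gave 0.430, 0.153 and 0.695, and library totals without LFG 3 (median of all genes -0.323) gave 0.0966 for Rps29, 0.360 for Rpl36 and -0.0246 for Rps3. Without 1 library, REG against LFG ranged from -1.76 to 0.199 for Rps29, -0.657 to 0.823 for Rpl36, -0.0672 to 0.740 for Rpl22 and -0.120 to 0.685 for Rps15, and hADMSCs-Exo against LFG from -1.51 to 0.423 for Rps29, -1.68 to 0.145 for Rpl35, -0.764 to 0.688 for Rpl36 and -0.105 to 0.677 for Rpl22. With the replicate block, medians were -0.0644, -0.0584 and 0.0574 for hADMSCs-Exo against REG, hADMSCs-Exo against LFG and REG against LFG, with 0 members called. Over all genes 9.52%, 5.72% and 8.61% had an unadjusted p under 0.05. The block also turned Rpl36 in REG against LFG to 0.110. No label states that libraries of equal number are pairs, though their deviations correlated positively for hADMSCs-Exo with LFG. In that comparison the block took Rps29 to -0.467, Rpl35 to -0.708 and Rpl36 to -0.0425. The cause was not tested. The ratio of read shares ran from 0.836 to 1.04 over all settings.

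The design of 3 libraries a group, the departure of LFG 3, reads shared with pseudogenes or overlapping genes, and, for Rps10 and Rpl13a, few reads limit these results. These limits were not ranked.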
